A study of Mus musculus with 167 samples.

Results

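Mouse embryonic fibroblasts (MEFs) that had received 3 dendritic cell transcription factors were sorted on day 3 by a YFP reporter alone or by the reporter together with CD45, the surface protein of blood cells. The libraries were chosen by their labels: 4 hCD2.SII d3 YFP+CD45+ libraries (double positive) and 5 hCD2.SII d3 YFP+ libraries, 9 libraries in all and 5.39% of those of the series. SII stands for lentiviral Spib, Irf8 and Ikzf2. All cells of both gates came from hCD2 MEFs, which carry 1 Cre allele at hCD2 and 1 YFP allele at Rosa26 on a C57BL/6 background, so that YFP reports that Cre has been active and not that Cre is active now. Cells were alive by DAPI exclusion, and each extraction used 5000 cells. The label of the YFP+ gate names YFP alone and does not say whether CD45 was used in that sort. Beside these stand, as levels only, 5 hCD2.SII d3 CD45+ libraries, sorted by CD45 alone, and 4 libraries of untransduced hCD2.MEF sorted as YFP-CD45-. The same gates are also compared with day 9 of the same line (3 hCD2.SII d9 YFP+CD45+ and 4 hCD2.SII d9 YFP+ libraries) and with day 3 of the C9a line (4 C9a.SII d3 tdT+CD45+ and 3 C9a.SII d3 tdT+ libraries), in which both Clec9a alleles carry Cre and both Rosa26 alleles carry tdTomato. The labels do not say whether replicates came from separate cultures, so p-values measure the spread between these libraries, which may be technical.

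Ptprc encodes CD45, a receptor tyrosine phosphatase that nearly all nucleated blood cells carry and fibroblasts lack. Spib is an ETS factor of B cells and plasmacytoid dendritic cells (pDCs), and binds the same core letters as its relative PU.1, the product of Spi1. Irf8 is an interferon regulatory factor needed for type 1 conventional dendritic cells (cDC1) and active in pDCs. It binds composite sites together with ETS factors. Ikzf2 (Helios) is a zinc finger factor of the Ikaros family. Human CD2 regulatory sequences are used to drive Cre in lymphoid cells. In bulk RNA, fewer cells of a type and less RNA per cell cannot be told apart.

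The deposited counts summed to between 9756715 and 11171193 in the YFP+CD45+ libraries and between 11834025 and 15544538 in the YFP+ libraries. Mitochondrially encoded genes took 7.90 ± 0.666% of the counts in YFP+CD45+ and 5.12 ± 0.859% in YFP+ (mean ± SD, n = 4 and 5, exact two-sided permutation test, p = 0.0159, the smallest that this design allows, and 0.0265 after adjustment over 5 library properties). YFP+ replicate 5 stood apart from the other YFP+ libraries. Over the 2439 genes called without it, it lay a median 71.1% of the way from the other 4 YFP+ libraries toward the YFP+CD45+ mean (log2 CPM with a prior count of 2). Xist, the RNA that coats the inactive X chromosome, separated the libraries in another way, since it was at 5.90 and 6.92 CPM in YFP+CD45+ replicates 3 and 4 and at 6.25 CPM in YFP+ replicate 5, against 133.4 and 137.5 CPM in YFP+CD45+ replicates 1 and 2 and 36.5 to 51.2 CPM in YFP+ replicates 1 to 4. Ddx3y, on the Y chromosome, was at 71.4 and 76.4 CPM in YFP+CD45+ replicates 3 and 4 and 68.7 CPM in YFP+ replicate 5. It was at 35.8 and 32.6 CPM in YFP+CD45+ replicates 1 and 2 and 42.6 to 46.6 CPM in YFP+ replicates 1 to 4. Eif2s3y, also on the Y chromosome, was at 19.3 to 25.9 CPM in YFP+CD45+ and 19.6 to 23.5 CPM in YFP+. Whether the share of male cells differed was not tested. The labels name no culture, litter or sort date for the Xist split. Results are given for all 9 libraries, with the value without YFP+ replicate 5 where leaving it out changes a call or moves a fold by over 1.5 times. They were also fitted with the Xist split as a term.

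The gate itself was visible at the RNA level. Ptprc was at 257, 208, 275 and 290.3 CPM (counts scaled to a common library size with TMM factors) in the YFP+CD45+ libraries, against 0.890, 0.711, 0.491, 0.484 and 34.5 CPM in the YFP+ libraries. Every YFP+CD45+ library lay above every YFP+ library, and YFP+ replicate 5 lay between the other 4 and the double positive cells. The CD45+ gate averaged 243 CPM and untransduced MEFs 0.107 CPM. Since Ptprc marks the gate, its difference is a check of the sort.

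**Figure D1:**
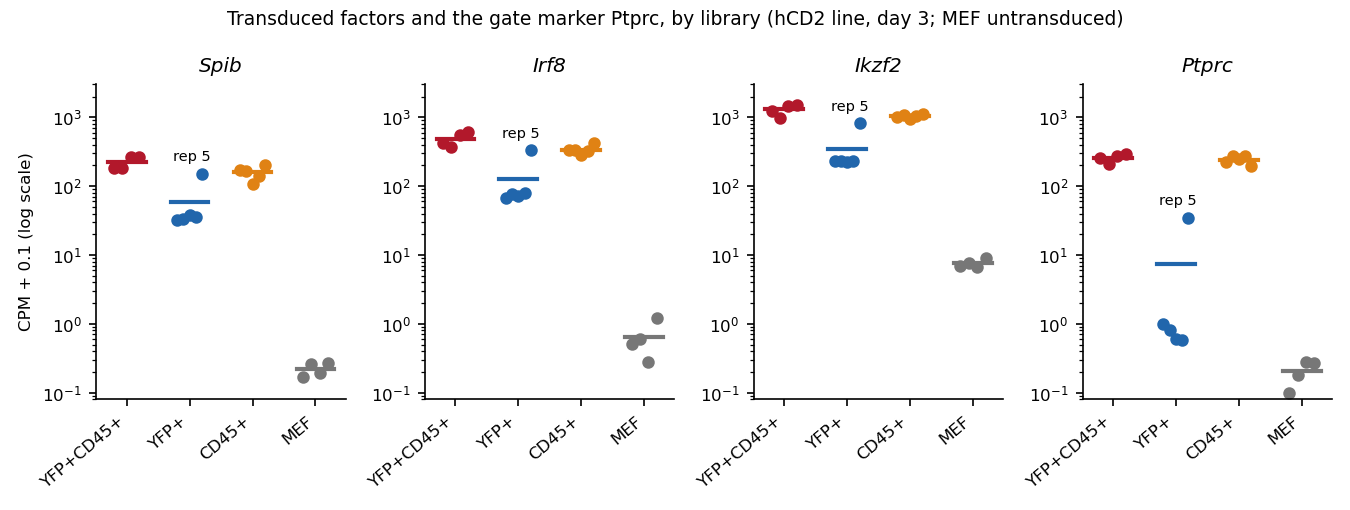
Levels of Spib, Irf8, Ikzf2 and Ptprc in CPM plus 0.1 on a log axis, by library, in the YFP+CD45+, YFP+ and CD45+ gates of hCD2.SII cells at day 3 and in untransduced hCD2.MEF; points are libraries and bars are group means. For each gene the 4 YFP+CD45+ libraries lie above all YFP+ libraries, and YFP+ replicate 5 lies above the other 4.

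The 3 transduced factors differed between the gates too. Each was about 4 times as high in YFP+CD45+ as in YFP+ cells in the fit over all 9 libraries. Spib was at 186, 182, 266 and 263 CPM in YFP+CD45+, against 31.6, 33.6, 37.6, 35.97 and 151.6 CPM in YFP+ and a mean of 0.123 CPM in untransduced MEFs. Irf8 was at 420.1, 370.4, 561 and 603 CPM in YFP+CD45+, against 66.7, 76.2, 71.3, 78.7 and 333 CPM in YFP+ and 0.544 CPM in untransduced MEFs. Ikzf2 was at 1252, 989, 1447 and 1519 CPM in YFP+CD45+, against 229, 231, 225, 232 and 825 CPM in YFP+ and 7.47 CPM in untransduced MEFs. For all 3 the groups did not overlap, YFP+ replicates 1 to 4 were close to each other, and YFP+ replicate 5 was over 3 times as high as any of them. The YFP+ cells were thus not free of the factors.

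The differences of the factors were 1.98 ± 0.50 for Spib (log2 fold change ± SE, adjusted p = 0.0156), 1.99 ± 0.52 for Irf8 (adjusted p = 0.0175) and 1.93 ± 0.44 for Ikzf2 (adjusted p = 0.00993), from edgeR's quasi-likelihood test with Benjamini-Hochberg adjustment over all genes. Without YFP+ replicate 5 they were 2.74, 2.78 and 2.55, and with the Xist split as a term 1.86, 1.89 and 1.82. The 2 sides of the Xist split differed in size: the log2 ratio of mean CPM plus 0.5 was 0.80 for Spib, 0.80 for Irf8 and 0.85 for Ikzf2 for YFP+CD45+ replicates 3 and 4 over YFP+ replicate 5, each under 2-fold, and 2.39, 2.42 and 2.29 for YFP+CD45+ replicates 1 and 2 over YFP+ replicates 1 to 4. The first side has 1 YFP+ library, so this difference was not tested. All 3 stayed called when any 1 of the 9 libraries was left out. Without the low-count filter Spib (1.92, adjusted p = 0.0694) and Irf8 (1.93, adjusted p = 0.0768) missed the threshold. Counts cannot separate vector from endogenous transcripts of these genes, which lie at chr7:44525993-44532071 on the minus strand (Spib), chr8:120736358-120756694 on the plus strand (Irf8) and chr1:69531214-69687245 on the minus strand (Ikzf2) of GRCm38 (mm10).

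The proportion of the factors to each other was alike in both gates. Irf8 had 2.03 to 2.29 raw counts per Spib count within the YFP+CD45+ libraries and 1.90 to 2.27 within the YFP+ libraries. Ikzf2 had 5.43 to 6.74 per Spib count in YFP+CD45+ and 5.44 to 7.25 in YFP+. The ranges overlap for both ratios. They are not corrected for transcript length, so they compare libraries and not genes. In the CD45+ gate the factors averaged 158.2 CPM for Spib, 341 for Irf8 and 1044 for Ikzf2.

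Of the factors of the study's other cocktails, Spi1, which encodes PU.1, was higher but scarce. It was at 2.47, 4.65, 6.10 and 4.18 CPM in YFP+CD45+, against 1.46, 1.90, 1.39, 1.21 and 2.22 CPM in YFP+ (1.44 ± 0.29, adjusted p = 0.00519, 1.58 without YFP+ replicate 5). Prdm1, the repressor Blimp-1, was at 32.2, 34.4, 47.2 and 51.7 CPM in YFP+CD45+, against 7.69, 5.76, 5.73, 6.61 and 32.9 CPM in YFP+. The lowest double positive library of Prdm1 lay below YFP+ replicate 5, and the log2 fold change of 1.84 ± 0.55 (adjusted p = 0.0278) missed the threshold when any 1 of YFP+ replicates 1 to 4 or YFP+CD45+ replicates 3 and 4 was left out (1.67 to 1.77, adjusted p = 0.057 to 0.0669). Without YFP+ replicate 5 it was 2.72 and called. Batf3 and Irf4 did not pass the filter on low counts, with at most 0.611 CPM of Batf3 and 1.10 CPM of Irf4 in the 9 libraries.

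Of 15587 genes tested, 789 (5.06%) were called higher in YFP+CD45+ than in YFP+ cells and 898 (5.76%) lower, at an adjusted p under 0.05 and at least a 2-fold difference. Counts of list members below are to be read beside these shares. The median log2 fold change over all genes was 0.02. Without YFP+ replicate 5, 1255 (8.19%) of 15327 genes were called higher and 1184 (7.72%) lower. Of the 789 and 898 calls, 766 and 885 were also made without it. With the Xist split as a term 671 (4.3%) were called higher and 702 (4.5%) lower, 8.81% in all. In the 6 libraries over 20 CPM of Xist 990 (6.21%) were called higher and 937 (5.88%) lower. The libraries of the 2 gates did not overlap for 533 of the genes called higher and 548 of those called lower. Over all genes tested, 10.6% did not overlap and were higher, and 13.9% did not overlap and were lower.

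**Figure D2:**
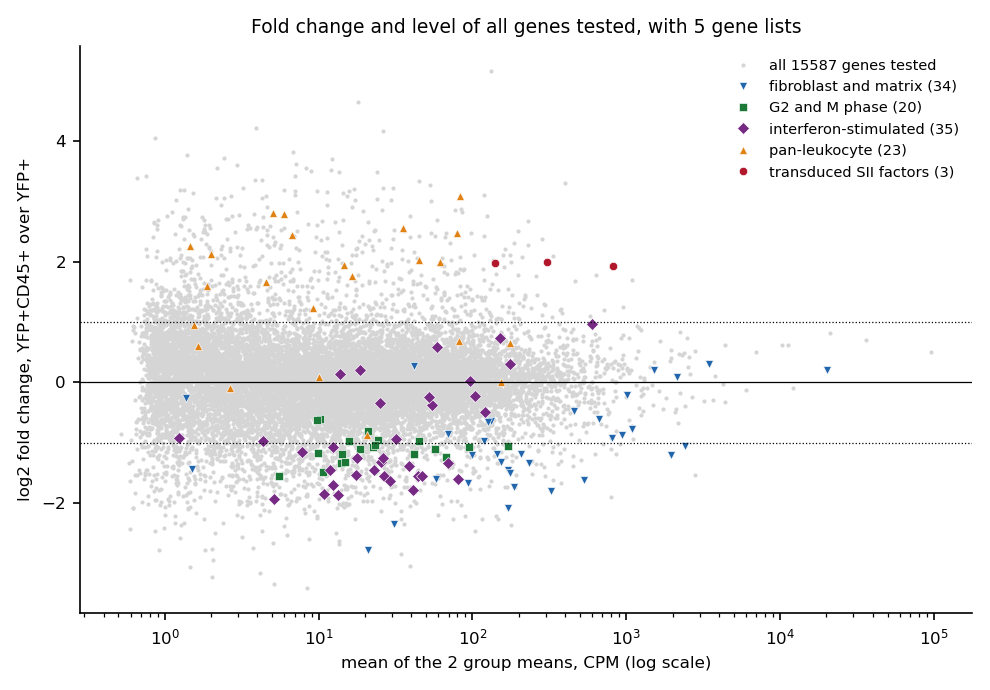
Log2 fold change of YFP+CD45+ over YFP+ against the mean level of each of 15587 genes in CPM (log axis), with 5 gene lists coloured (Ptprc left out of the pan-leukocyte list) and dotted lines at 2-fold. The transduced factors lie near 2 on the log2 scale and most pan-leukocyte genes above 0, while most fibroblast, interferon-stimulated and G2 and M phase genes lie below 0.

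Many genes that blood cells share were higher in the double positive cells. Of 24 tested pan-leukocyte genes, which number 30 in the list, 13 rose and none fell, with a median log2 fold change of 1.85. The 30 summed to 1172.5 to 1564 CPM in YFP+CD45+ and 404 to 971 CPM in YFP+. In untransduced MEFs they summed to 210 to 241 CPM, so the list was not silent there. Leaving out 1 library gave 9 to 17 higher, with the 17 reached without YFP+ replicate 5. Ptprc is 1 of the 13 and belongs to the gate. Itgb2, the beta chain of leukocyte integrins, was at 118.3, 117.5, 169 and 189.5 CPM in YFP+CD45+, against 8.33, 6.00, 7.12, 6.53 and 61.4 CPM in YFP+ (3.08 ± 0.74, adjusted p = 0.0130, 4.44 without YFP+ replicate 5). Nckap1l (Hem-1), the blood cell subunit of the WAVE complex that builds branched actin, was at 8.49, 7.68, 8.65 and 10.5 CPM in YFP+CD45+, against 0.508, 1.11, 1.31, 1.29 and 2.29 CPM in YFP+ (2.80 ± 0.32, adjusted p = 5.2e-04). YFP+ replicate 5 was the highest of the YFP+ libraries. Cd37, a leukocyte tetraspanin, was at 8.95, 8.11, 12.1 and 12.6 CPM in YFP+CD45+, against 0.699, 0.395, 0.819, 1.21 and 4.67 CPM in YFP+ (2.78 ± 0.58, adjusted p = 0.00681, 3.78 without YFP+ replicate 5).

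Not every pan-leukocyte gene separated the gates. Plek, which encodes the protein kinase C substrate pleckstrin, was at 215, 205, 209.6 and 223 CPM in YFP+CD45+, against 123.9, 108.9, 102.01, 113.5 and 244 CPM in YFP+ (0.65 ± 0.25, adjusted p = 0.0635). It was already over 100 CPM in every YFP+ library, against 1.23 CPM in untransduced MEFs, and its highest library was YFP+ replicate 5. Without that library the difference was 0.97 and still under 2-fold. Without the low-count filter the call of Itgb2 missed the threshold (3.02, adjusted p = 0.0569).

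RefSeq promoter windows (250 bases before to 50 after the start, GRCm38.p6) were searched on both strands for GAGGAAGT, the core that PU.1 and Spi-B prefer, for GGAANNGAAA, the composite element of ETS and IRF factors, and for GAAANNGAAA, the core of the interferon-stimulated response element. Windows were at hand for 97 named genes. They were at hand for 514 of the 789 genes called higher and 608 of the 898 called lower, which is under 80%, so a comparison of motif shares between those sets is void. Of all 32851 windows, 3.2% hold GAGGAAGT, 2.72% hold GGAANNGAAA and 3.44% hold GAAANNGAAA. Among the named genes called higher, GAGGAAGT was found in the windows of Cd37, Ctss, Ctsc, Fgd2, Pik3cg, Pld4 and Tlr1. They are 7 of the 35 named genes called higher that have a window. The 3.2% counts windows and not genes, and most named genes were picked from lists of blood cell genes or by their change. Of 18 tested pan-leukocyte genes with a window, called or not, 5 hold GAGGAAGT, and 3 of the 10 called do. Whether the motif goes with the rise was not tested. The windows of 3 are shown as examples of the letters close to the start, where Tlr1, Pik3cg and Pld4 also hold them. Cd37 lies at chr7:45238790-45239089 on the minus strand, Ctss at chr3:95526536-95526835 on the plus strand and Fgd2 at chr17:29360664-29360963 on the plus strand. Capitals mark the matches. In Cd37 and Fgd2 they are GAGGAAGT read on the other strand, and in Ctss first GAAANNGAAA and then GAGGAAGT on the other strand.
Cd37: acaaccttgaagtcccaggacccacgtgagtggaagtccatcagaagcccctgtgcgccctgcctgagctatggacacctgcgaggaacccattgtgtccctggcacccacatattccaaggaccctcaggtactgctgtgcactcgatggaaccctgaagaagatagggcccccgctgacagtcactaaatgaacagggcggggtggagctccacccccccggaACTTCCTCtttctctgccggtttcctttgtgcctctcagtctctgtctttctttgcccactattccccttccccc
Ctss: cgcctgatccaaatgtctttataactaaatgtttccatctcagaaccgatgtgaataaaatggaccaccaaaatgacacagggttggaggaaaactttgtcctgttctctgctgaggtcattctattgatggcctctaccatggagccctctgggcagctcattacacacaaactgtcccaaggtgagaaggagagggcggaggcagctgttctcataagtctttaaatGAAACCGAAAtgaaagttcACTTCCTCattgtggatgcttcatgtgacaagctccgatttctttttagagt
Fgd2: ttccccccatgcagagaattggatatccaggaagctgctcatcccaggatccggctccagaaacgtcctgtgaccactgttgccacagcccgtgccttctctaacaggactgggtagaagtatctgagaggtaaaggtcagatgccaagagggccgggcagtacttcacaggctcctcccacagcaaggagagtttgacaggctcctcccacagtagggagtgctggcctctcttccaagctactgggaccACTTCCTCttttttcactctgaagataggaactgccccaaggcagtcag
A match is a description of letters and not of binding.

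Transcription factors and signalling proteins of blood cells followed. Of 21 tested haematopoietic and dendritic transcription factors 5 rose and 1 fell, with a median log2 fold change of 0.64 (9 and 1 without YFP+ replicate 5). Leaving out 1 library gave 4 to 9 higher. Ikzf3 (Aiolos), an Ikaros family factor of lymphocytes that was not transduced, was at 11.5, 13.7, 28.2 and 28.005 CPM in YFP+CD45+, against 0.826, 0.711, 0.737, 0.887 and 8.63 CPM in YFP+ (3.15 ± 0.77, adjusted p = 0.0138, 4.71 without YFP+ replicate 5). Mef2c, a MADS-box factor of lymphoid and myeloid cells, was at 26.3, 25.2, 52.5 and 59.7 CPM in YFP+CD45+, against 5.97, 5.84, 4.91, 5.65 and 18.5 CPM in YFP+ (2.35 ± 0.46, adjusted p = 0.00597, 2.91 without YFP+ replicate 5). YFP+CD45+ replicates 3 and 4 lay well above replicates 1 and 2 for both genes. Lyl1 (log2 fold change 1.91 ± 0.36) and the ETS factor Fli1 (1.25 ± 0.29) rose as well, Lyl1 to 4.87 to 5.75 CPM and Fli1 to 30.9 to 38.7 CPM in YFP+CD45+. Klf4, a zinc finger factor of fibroblasts and monocytes, fell to 32.9, 38.8, 34.5 and 34.1 CPM in YFP+CD45+, against 77.8, 88.1, 93.5, 87.99 and 46.6 CPM in YFP+ (-1.13 ± 0.18, adjusted p = 0.00217), and was under 2-fold with the Xist split as a term (-0.98). Zeb2 is a transcriptional repressor that acts in pDC and myeloid development. Its level was 373, 322, 403 and 418 CPM in YFP+CD45+, against 165.2, 181, 185, 167.6 and 339 CPM in YFP+. The difference was under 2-fold (0.90 ± 0.22) and passed 2-fold without YFP+ replicate 5 (1.16).

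Of 14 tested myeloid kinases and adaptors, 6 rose and none fell, with a median log2 fold change of 1.05 (9 higher without YFP+ replicate 5, 3 without the low-count filter). Syk, the kinase behind immunoreceptors, was at 224, 212, 303 and 287 CPM in YFP+CD45+, against 35.02, 31.7, 36.6, 36.4 and 165.5 CPM in YFP+ (2.10 ± 0.53, adjusted p = 0.0149, 2.92 without YFP+ replicate 5). Pik3ap1 (BCAP), an adaptor of phosphoinositide 3-kinase, was at 90.1, 95.9, 110.1 and 112.1 CPM in YFP+CD45+, against 5.40, 7.58, 4.99, 7.90 and 55.4 CPM in YFP+ (2.68 ± 0.72, adjusted p = 0.0196, 4.03 without YFP+ replicate 5). In both, YFP+ replicate 5 lay well above the other YFP+ libraries. Btk, the kinase of B and myeloid cells, was at 3.20, 1.95, 3.93 and 3.26 CPM in YFP+CD45+ and at most 1.58 CPM in YFP+ (2.49 ± 0.61, adjusted p = 0.0118, 3.36 without YFP+ replicate 5). Lyn, a Src family kinase, was at 251, 252, 241 and 242 CPM in YFP+CD45+, against 115.5, 113.1, 104.4, 110. and 234 CPM in YFP+, under 2-fold over all 9 libraries (0.89 ± 0.23) and past it without YFP+ replicate 5 (1.20). Pik3cg (1.50 ± 0.43) lost its call without YFP+CD45+ replicate 4 (1.43, adjusted p = 0.057). Of 7 tested growth factor receptors, 1 rose (Il10ra, 3.17 ± 0.92, 5.39 without YFP+ replicate 5), a call that was lost when YFP+ replicate 1, 2 or 4 or YFP+CD45+ replicate 3 or 4 was left out (2.87 to 3.08, adjusted p = 0.0509 to 0.061). Without the low-count filter the calls of Ikzf3, Fli1, Syk and Pik3ap1 missed the threshold, with adjusted p between 0.053 and 0.0857.

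**Figure D3:**
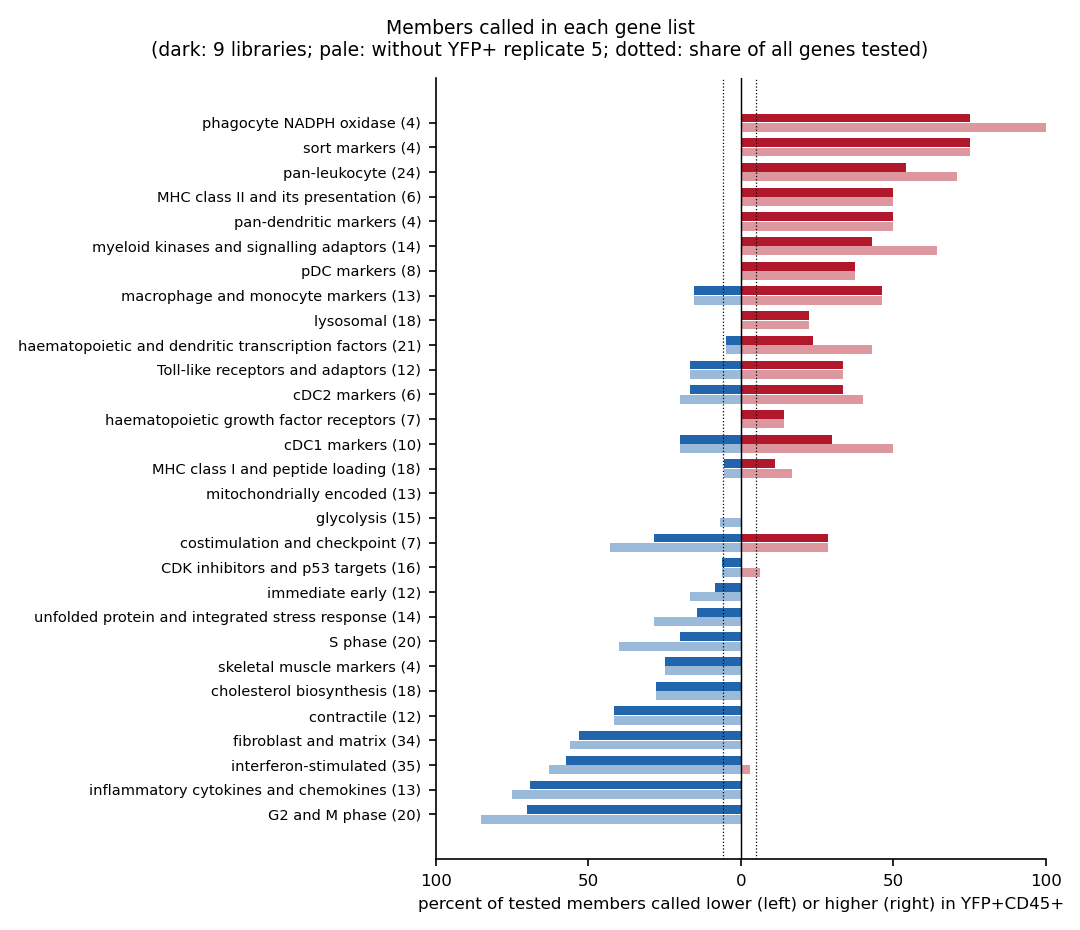
Share of the tested members of 29 gene lists (at least 4 tested, number in brackets) that were called lower, to the left, or higher, to the right, in YFP+CD45+ than in YFP+; dark bars use all 9 libraries, pale bars leave out YFP+ replicate 5, and dotted lines mark the 5.76% of all genes called lower and the 5.06% called higher. Pan-leukocyte, NADPH oxidase and MHC class II genes lie to the right, and G2 and M phase, inflammatory, interferon-stimulated and fibroblast genes to the left.

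Markers of the dendritic subsets moved in part, and most could not be tested. Of 20 pDC markers 8 were tested and 3 rose, with a median of 0.02. Pld4, an endosomal exonuclease rich in pDCs, was at 161.1, 163.4, 166.7 and 171 CPM in YFP+CD45+, against 14.5, 15.002, 16.3, 14.8 and 90.7 CPM in YFP+ and 0.266 CPM in untransduced MEFs (2.48 ± 0.60, adjusted p = 0.0129, 3.49 without YFP+ replicate 5). Klra17, which encodes a lectin-like receptor of mouse pDCs, was low, at 3.20, 3.57, 1.18 and 1.22 CPM in YFP+CD45+, against 0.318, 0.474, 0.409, 0.323 and 0.237 CPM in YFP+ (2.70 ± 0.43, adjusted p = 0.00209). The third was Tlr9, whose call was lost without any 1 of YFP+ replicates 1 to 4 or YFP+CD45+ replicates 3 and 4. The pDC surface marker Siglech was at or near 0 in all 9 libraries, with at most 0.164 CPM. Tcf4 (E2-2), the master regulator of pDCs, was at 120.2 to 160.6 CPM in YFP+CD45+ and 113.5 to 166.5 CPM in YFP+ (0.15 ± 0.13, adjusted p = 0.360). Bst2, a pDC marker that interferon also induces, was at 91.4 to 101.2 CPM in YFP+CD45+ and 95.4 to 121.8 CPM in YFP+ (-0.22 ± 0.08, adjusted p = 0.0485), a difference under 2-fold.

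Of 17 cDC1 markers 10 were tested, with 3 higher, 2 lower and a median of 0.83 (5 higher and 2 lower without YFP+ replicate 5), and Irf8, which was transduced, is 1 of the 3. Naaa, a lysosomal acid amidase, was at 69.97, 64.5, 70.3 and 71.9 CPM in YFP+CD45+, against 15.7, 15.7, 17.8, 17.3 and 45.6 CPM in YFP+ (1.65 ± 0.32, adjusted p = 0.00539). Cd24a, a glycosylphosphatidylinositol-anchored surface protein, was at 166.7, 174, 265 and 262 CPM in YFP+CD45+, against 67.1, 58.2, 60.6, 60.002 and 139.99 CPM in YFP+ (1.52 ± 0.30, adjusted p = 0.00588). For both, YFP+ replicate 5 was the highest YFP+ library. Tlr3, the endosomal sensor of double-stranded RNA, went the other way, at 2.28, 1.95, 0.984 and 0.407 CPM in YFP+CD45+, against 6.74, 6.47, 7.29, 5.40 and 2.77 CPM in YFP+ (-1.99 ± 0.43, adjusted p = 0.00674). The cDC1 chemokine receptor Xcr1 stayed at or under 0.548 CPM in all 9 libraries and was not tested. Of 6 tested cDC2 markers 2 rose and 1 fell, and the integrin chain Itgam (CD11b) was at 70.8, 70.2, 63.1 and 70.98 CPM in YFP+CD45+, against 5.21, 5.37, 3.85, 5.89 and 31.7 CPM in YFP+ (2.75 ± 0.60, adjusted p = 0.00888, 3.80 without YFP+ replicate 5). The other of the 2, Clec12a (1.97 ± 0.55, 2.87 without YFP+ replicate 5), lost its call without YFP+ replicate 4 (1.85, adjusted p = 0.0519). Of 4 tested pan-dendritic markers 2 rose. The peptidase Dpp4 (CD26) was at 4.84, 7.90, 3.64 and 4.99 CPM in YFP+CD45+, against 1.72, 2.21, 0.819, 1.53 and 2.69 CPM in YFP+ (1.59 ± 0.33), while the call of Itgax (CD11c, 2.54 ± 0.78, 3.67 without YFP+ replicate 5) was lost when any 1 of YFP+ replicates 1 to 4 or YFP+CD45+ replicates 3 and 4 was left out (2.16 to 2.58, adjusted p = 0.0569 to 0.0849).

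Of 13 tested macrophage and monocyte markers, 6 rose and 2 fell, with a median of 0.60. Mpeg1, a pore-forming protein of phagocytes, was at 546, 567, 366 and 412 CPM in YFP+CD45+, against 67.6, 61.6, 56.7, 58.95 and 218 CPM in YFP+ and 1.93 CPM in untransduced MEFs (2.38 ± 0.44, adjusted p = 0.00465, 2.99 without YFP+ replicate 5). Fcgr3, a receptor for immunoglobulin G, was at 41.1, 34.3, 14.7 and 16.1 CPM in YFP+CD45+, against 5.15, 4.74, 5.32, 4.03 and 11.9 CPM in YFP+ (2.11 ± 0.41, adjusted p = 0.00522). YFP+CD45+ replicates 1 and 2 were over 2 times as high as replicates 3 and 4, which lay just above YFP+ replicate 5. Msr1, a scavenger receptor, was at 2.28, 2.92, 1.28 and 1.32 CPM in YFP+CD45+, against 0.445, 0, 0.164, 0.323 and 0.396 CPM in YFP+ (2.82 ± 0.52). Cd14, the co-receptor for lipopolysaccharide, fell to 1.64, 1.73, 0.984 and 1.12 CPM in YFP+CD45+, against 3.94, 5.84, 4.75, 4.92 and 2.69 CPM in YFP+ (-1.65 ± 0.28, adjusted p = 0.00261). Of 4 tested subunits of the phagocyte NADPH oxidase 3 rose (4 without YFP+ replicate 5, and 1 without YFP+ replicate 4, YFP+CD45+ replicate 3 or YFP+CD45+ replicate 4). Ncf1, a cytosolic subunit, lost its call without YFP+ replicate 4, YFP+CD45+ replicate 3 or YFP+CD45+ replicate 4. The catalytic subunit Cybb was at 77.5, 78.4, 35.6 and 37.8 CPM in YFP+CD45+, against 8.64, 11.3, 7.61, 10.6 and 25.8 CPM in YFP+ (2.19 ± 0.41, adjusted p = 0.00496), and its partner Cyba was under 2-fold (0.91 ± 0.17, 1.12 without YFP+ replicate 5).

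Antigen presentation genes changed in part. Of 6 tested genes of MHC class II presentation 3 rose and none fell, with a median of 0.97. The invariant chain Cd74 was at 116.5, 106.2, 156.97 and 163.2 CPM in YFP+CD45+, against 7.37, 5.37, 5.89, 7.58 and 69.9 CPM in YFP+ and 0.219 CPM in untransduced MEFs. Its log2 fold change of 2.85 ± 0.80 (adjusted p = 0.0229, 4.41 without YFP+ replicate 5) missed the threshold without YFP+ replicate 4, YFP+CD45+ replicate 3 or YFP+CD45+ replicate 4 (2.64 to 2.76, adjusted p = 0.0512 to 0.0521). Ctss, the protease that trims the invariant chain, was at 14.9, 16.7, 18.7 and 24.4 CPM in YFP+CD45+, against 3.37, 2.76, 3.19, 2.42 and 11.7 CPM in YFP+ (2.02 ± 0.45, adjusted p = 0.00937, 2.70 without YFP+ replicate 5). The class II chain H2-Aa itself was at or under 0.216 CPM in all 9 libraries, and H2-Eb1, at 1.46, 1.41, 1.87 and 3.26 CPM in YFP+CD45+ and 0.508, 0.632, 0.164, 0.323 and 1.19 CPM in YFP+ (1.84 ± 0.47), lost its call without YFP+CD45+ replicate 4 (1.50, adjusted p = 0.0519), which left 1 of the 3 called. Of 18 tested genes of MHC class I and peptide loading, 2 rose and 1 fell (H2-T22, whose call was lost without YFP+ replicate 1 or 3 or YFP+CD45+ replicate 3 or 4). Over all genes tested 5.06% were called higher and 5.76% lower, so 1 of 18 lower is near the background. The class I gene H2-Q4 was at 138.4, 126.9, 206 and 213 CPM in YFP+CD45+, against 59.9, 54.01, 57.1, 58.6 and 108.9 CPM in YFP+ (1.37 ± 0.25), though class I genes are close copies whose reads may be shared. Tapbp (tapasin), the peptide loading chaperone, was at 433, 449.5, 604 and 620.3 CPM in YFP+CD45+, against 181, 185, 183, 199.7 and 412 CPM in YFP+ (1.21 ± 0.27, adjusted p = 0.00936). The light chain B2m was at 819, 953, 719 and 782 CPM in YFP+CD45+ and 823, 678, 683, 692 and 625 CPM in YFP+ (0.26 ± 0.10, adjusted p = 0.0595).

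Costimulatory genes moved in both directions, with 2 of 7 tested higher and 2 lower. Cd86 was at 3.65, 3.03, 2.75 and 2.65 CPM in YFP+CD45+, against 0.254, 0.237, 0.164, 0.161 and 1.90 CPM in YFP+ (2.49 ± 0.63, adjusted p = 0.0133, 3.84 without YFP+ replicate 5). Its relative Cd80, which binds the same receptors on T cells, was at 4.48, 5.30, 1.38 and 2.04 CPM in YFP+CD45+, against 10.1, 10.1, 11.1, 10.2 and 5.06 CPM in YFP+ (-1.47 ± 0.37, adjusted p = 0.0136). Cd83 rose (1.80 ± 0.29) and Cd40 fell (-1.40 ± 0.22), each at under 13 CPM in every library. Leaving out YFP+CD45+ replicate 1 or 2 raised the number of costimulatory genes called lower to 4. Of 12 tested Toll-like receptors and adaptors 4 rose and 2 fell. Tlr1, which pairs with Tlr2 against bacterial lipoproteins, was at 5.39, 4.98, 5.51 and 8.45 CPM in YFP+CD45+, against 0.763, 0.474, 0.328, 0.403 and 3.24 CPM in YFP+ (2.56 ± 0.58, adjusted p = 0.00921, 3.61 without YFP+ replicate 5). Unc93b1, the chaperone of endosomal Toll-like receptors, was at 116.2, 111.9, 121.3 and 125.4 CPM in YFP+CD45+, against 38.3, 37.1, 40.4, 39.4 and 97.02 CPM in YFP+ (1.26 ± 0.29, adjusted p = 0.0106), and Myd88, their adaptor, at 37.1 to 44.7 CPM in YFP+CD45+ and 32.5 to 43.2 CPM in YFP+ (0.21 ± 0.11, adjusted p = 0.142). Of 18 tested lysosomal genes 4 rose and none fell, with a median of 0.46. The protease Ctsh was at 105.8, 101.3, 94.9 and 98.7 CPM in YFP+CD45+, against 21.6, 21.1, 19.4, 21.5 and 47.6 CPM in YFP+ (1.96 ± 0.26, adjusted p = 0.00141). Ctsh and Ctss stayed called without any 1 library, while Ctsc and Laptm5 did not without any 1 of YFP+ replicates 1 to 4 or YFP+CD45+ replicates 3 and 4 (0.88 to 0.99 for Ctsc, 2.23 to 2.34 for Laptm5, and 3.95 without YFP+ replicate 5).

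Markers of other cell types were low in both gates. Summed levels were 4.72 to 13.2 CPM in YFP+CD45+ and 8.94 to 18.3 CPM in YFP+ for 12 granulocyte and mast cell markers, with S100a9 and Retnlg at 0 in all 9 libraries. They were 11.6 to 16.1 CPM in YFP+CD45+ and 15.7 to 19.4 CPM in YFP+ for 8 B cell markers, most of it Ebf1, which averaged 33.98 CPM in untransduced MEFs (10.4 to 14.1 CPM in YFP+CD45+ and 14.9 to 18.003 CPM in YFP+). The 12 T and NK cell markers summed to 2.19 to 3.84 CPM in YFP+CD45+ and 1.98 to 3.52 CPM in YFP+, with Trbc1 and Nkg7 at 0 throughout. The 10 erythroid and platelet, 8 endothelial and 8 epithelial markers summed to at most 11.2 CPM in any YFP+CD45+ library and 28.9 CPM in any YFP+ library. Of the 14 members of these lists and of the skeletal muscle list that were tested, none rose and 4 fell, among them Kdr, Mcpt8 and Ppbp, named after their values were seen. The fourth was Tnnt2 (-1.37 ± 0.34). Ppbp lost its call without any 1 of YFP+ replicates 1, 2, 4 and 5 or YFP+CD45+ replicates 1 to 3. Des (desmin) was at 43.5, 56.04, 2.16 and 2.85 CPM in YFP+CD45+ and 8.71, 10.3, 6.30, 10.6 and 5.70 CPM in YFP+ (1.67 ± 0.83, adjusted p = 0.138). It followed the Xist split, being high in YFP+CD45+ replicates 1 and 2 and below the YFP+ range in replicates 3 and 4.

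Interferon-stimulated genes were lower in the double positive cells. Of 35 tested, 20 fell and none rose, with a median log2 fold change of -1.25 (22 lower and 1 higher without YFP+ replicate 5). Leaving out 1 library gave 15 to 22 lower. Isg15, a ubiquitin-like modifier, was at 28.5, 24.4, 18.7 and 17.1 CPM in YFP+CD45+, against 75.8, 72.6, 77.6, 70.3 and 38.6 CPM in YFP+ and 170.5 CPM in untransduced MEFs (-1.56 ± 0.22, adjusted p = 0.00158). Oasl2, a member of the oligoadenylate synthetase family, was at 23.4, 23.9, 12.8 and 12.9 CPM in YFP+CD45+, against 73.3, 67.9, 81.5, 69.7 and 27.9 CPM in YFP+ and 265 CPM in untransduced MEFs (-1.78 ± 0.33, adjusted p = 0.00448). Untransduced MEFs were the highest of the 3 groups for both genes. The helicase gene Ddx60 was at 3.74, 2.70, 0.984 and 0.917 CPM in YFP+CD45+, against 8.39, 11.4, 9.09, 8.47 and 3.96 CPM in YFP+ (-1.94 ± 0.43, adjusted p = 0.00824), and Xaf1 fell by about as much (-1.87 ± 0.34). In 1 fit over all hCD2 groups, 6 of the 35 were called lower, and Isg15 (-1.61, adjusted p = 0.125), Oasl2 and Ddx60 missed the threshold.

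Windows were at hand for 18 of the 20 interferon-stimulated genes that fell, and 13 of these hold GAAANNGAAA. Of all 26 tested members of the list with a window, fallen or not, 18 hold it. The share over all windows was 3.44%, which counts windows and not genes. The list was chosen for induction by interferon, so the motif is part of what defines it. The windows of Isg15 (chr4:156200769-156201068, minus strand) and Ddx60 (chr8:61927837-61928136, plus strand) are shown because these genes had several matches and were lower in all 4 double positive libraries than in any YFP+ library. Capitals mark GAAANNGAAA. In Isg15 3 matches overlap between bases -78 and -57 from the start.
Isg15: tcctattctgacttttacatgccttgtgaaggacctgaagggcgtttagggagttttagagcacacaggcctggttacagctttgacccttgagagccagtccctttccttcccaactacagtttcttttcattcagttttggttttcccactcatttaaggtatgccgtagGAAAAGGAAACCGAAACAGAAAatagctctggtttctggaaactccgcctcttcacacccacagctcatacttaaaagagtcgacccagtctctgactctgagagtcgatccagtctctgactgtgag
Ddx60: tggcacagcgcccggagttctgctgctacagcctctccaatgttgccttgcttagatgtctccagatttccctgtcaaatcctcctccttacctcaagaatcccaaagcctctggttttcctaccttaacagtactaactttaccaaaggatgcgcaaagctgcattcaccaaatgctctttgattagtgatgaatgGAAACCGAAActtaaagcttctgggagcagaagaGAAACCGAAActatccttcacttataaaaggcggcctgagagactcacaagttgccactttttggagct

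Inflammatory cytokines and chemokines fell as well, in 9 of 13 tested and with a median of -1.45. Leaving out YFP+ replicate 2 or 3 lowered the count to 5. Cxcl5, a neutrophil attractant, was at 11.6, 11.1, 9.44 and 10.7 CPM in YFP+CD45+, against 54.5, 36.1, 53.95, 43.8 and 18.5 CPM in YFP+ and 115.2 CPM in untransduced MEFs (-1.92 ± 0.29, adjusted p = 0.00192). Il6 was at 5.30, 8.55, 2.56 and 3.16 CPM in YFP+CD45+, against 13.6, 14.4, 14.7, 15.1 and 11.4 CPM in YFP+ (-1.47 ± 0.29, adjusted p = 0.00506). Cxcl16, a chemokine that antigen-presenting cells also make, was at 17.4, 15.9, 7.87 and 9.67 CPM in YFP+CD45+ and 18.2, 15.6, 16.5, 15. and 11.9 CPM in YFP+ (-0.26 ± 0.22, adjusted p = 0.381, and 0.05 in the 6 libraries over 20 CPM of Xist). In 1 fit over all hCD2 groups Cxcl5 missed the threshold (-1.96, adjusted p = 0.0664).

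Fibroblast genes were lower in the double positive cells, and the matrix was not uniform. Of 34 fibroblast and matrix genes, all tested, 18 fell and none rose, with a median of -1.12 (19 without YFP+ replicate 5, 6 in 1 fit over all hCD2 groups). Lum (lumican), a collagen-binding proteoglycan, was at 6.85, 5.52, 4.62 and 3.97 CPM in YFP+CD45+, against 41.4, 41.3, 48.9, 39.5 and 13.1 CPM in YFP+ (-2.78 ± 0.37, adjusted p = 0.00142). Dcn (decorin), of the same family, was at 70.8, 74.97, 53.7 and 53.1 CPM in YFP+CD45+, against 303 to 357 CPM in YFP+ replicates 1 to 4, with YFP+ replicate 5 between them (-2.09 ± 0.33, adjusted p = 0.00268). YFP+ replicates 1 to 4 were near the untransduced level for both, 44.9 CPM of Lum and 338 CPM of Dcn. Timp3, an inhibitor of matrix proteases, was at 172, 189, 93.3 and 114.3 CPM in YFP+CD45+, against 579, 543, 540.2, 556 and 302 CPM in YFP+ (-1.80 ± 0.25, adjusted p = 0.00165). Prrx1, a homeobox factor of mesenchyme, was at 101.3, 107.4, 65.3 and 68.6 CPM in YFP+CD45+, against 316, 300.1, 332, 325 and 174 CPM in YFP+ (-1.73 ± 0.22, adjusted p = 0.00111).

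Fn1 (fibronectin), the most abundant of the 34 genes in these 9 libraries, was at 25625, 23229, 17719 and 18444 CPM in YFP+CD45+ and 17227, 17627, 18150.0, 17705 and 23690.0 CPM in YFP+ (0.20 ± 0.14, adjusted p = 0.270), against 8728 CPM in untransduced MEFs. Both gates lay above the untransduced MEFs, and the gates overlapped. The summed level of the 34 genes therefore overlapped too, at 32427 to 42381 CPM in YFP+CD45+ and 40703 to 43808 CPM in YFP+. In 1 fit over all hCD2 groups the calls of Lum (-2.82, adjusted p = 0.0513) and Dcn (-2.14, adjusted p = 0.0652) missed the threshold.

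Of 12 contractile genes 5 fell and none rose, but only Ccn1 kept its call in every fit that left out 1 library. Ccn1 (CYR61), a matricellular target of YAP, was at 259.9, 285, 259 and 266 CPM in YFP+CD45+, against 718, 640.2, 649, 662 and 519 CPM in YFP+ (-1.22 ± 0.09, adjusted p = 6.4e-05). The count was 2 without YFP+ replicate 1, and 1 without YFP+ replicate 2, 3 or 4, YFP+CD45+ replicate 3 or YFP+CD45+ replicate 4. It was 2 with the Xist split as a term and 1 without the low-count filter or in 1 fit over all hCD2 groups. Tagln (transgelin), at 344, 367, 132.5 and 141.7 CPM in YFP+CD45+, against 606, 581, 549, 586 and 383 CPM in YFP+ (-1.11 ± 0.33), was lower in YFP+CD45+ replicates 3 and 4 than in replicates 1 and 2, and its difference was -0.94 with the Xist split as a term.

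Cell cycle genes were lower in YFP+CD45+. Of 20 G2 and M phase genes, all tested, 14 fell and none rose, with a median of -1.09 (17 without YFP+ replicate 5, 9 without YFP+CD45+ replicate 2, 4 in 1 fit over all hCD2 groups). Ttk (MPS1), the spindle checkpoint kinase, was at 2.28, 3.25, 2.85 and 2.75 CPM in YFP+CD45+, against 8.90, 8.61, 9.74, 9.11 and 5.38 CPM in YFP+ (-1.55 ± 0.20, adjusted p = 9.6e-04). Plk1, the mitotic polo kinase, was at 6.49, 7.36, 10.8 and 8.76 CPM in YFP+CD45+, against 23.7, 22.3, 22.4, 23.95 and 14.2 CPM in YFP+ (-1.32 ± 0.19, adjusted p = 0.00161). Bub1 (-1.48 ± 0.27) and Aurka (-1.33 ± 0.23) fell as well, and Cenpf, a kinetochore protein, was just under 2-fold (-0.97 ± 0.23, adjusted p = 0.0105, -1.06 without YFP+ replicate 5). Of 20 S phase genes 4 fell and none rose, with a median of -0.79 (8 lower without YFP+ replicate 5). Tyms, the thymidylate synthase, was at 5.57, 5.41, 3.64 and 4.38 CPM in YFP+CD45+, against 18.2, 17.8, 19.1, 18.5 and 7.99 CPM in YFP+ (-1.75 ± 0.26, adjusted p = 0.00165), and Rrm2, a subunit of ribonucleotide reductase, at 36.1, 34.6, 35.5 and 42.2 CPM in YFP+CD45+, against 98.1, 91.4, 88.8, 92.8 and 54.8 CPM in YFP+ (-1.17 ± 0.16). Of 16 CDK inhibitors and p53 targets 1 fell (Plk2, named after its value was seen), a call lost without YFP+CD45+ replicate 3, and none rose (1 without YFP+ replicate 5). The 1 of 16 is near the 5.76% of all genes called lower. The p53 target Ccng1 was at 568, 565, 547 and 595 CPM in YFP+CD45+ and 665, 637, 605, 649.9 and 558 CPM in YFP+ (-0.10 ± 0.07, adjusted p = 0.244).

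Of 18 cholesterol biosynthesis genes 5 fell and none rose, with a median of -0.82. Cyp51, the lanosterol demethylase, was at 16.5, 16.01, 13.9 and 15.2 CPM in YFP+CD45+, against 47.7, 44.5, 51.2, 48.4 and 26.7 CPM in YFP+ (-1.47 ± 0.17, adjusted p = 6.2e-04). Idi1 and Sqle fell as well (-1.51 ± 0.15 and -1.31 ± 0.18), and all 3 genes named here stayed called without any 1 library. Of 14 genes of the unfolded protein and integrated stress response 2 fell, Asns (-1.18 ± 0.15) and Trib3 (-1.37 ± 0.23), and 4 did without YFP+ replicate 5 or without YFP+CD45+ replicate 2. Of 12 immediate early genes 1 fell, Egr1, which was at 20.5, 21.6, 20.8 and 24.8 CPM in YFP+CD45+, against 58.7, 56.3, 57.6, 56.7 and 36.4 CPM in YFP+ (-1.25 ± 0.14, adjusted p = 5.2e-04), and 2 did without YFP+ replicate 1 or 5 or YFP+CD45+ replicate 1 or 3. Over all genes tested 5.76% were called lower, so 2 of 14 and 1 of 12 say little about these lists. Jun was at 138.4 to 150.9 CPM in YFP+CD45+ and 143.5 to 163.4 CPM in YFP+ (-0.06 ± 0.06, adjusted p = 0.468). None of 15 glycolysis genes was called (1 lower without YFP+ replicate 5 or YFP+CD45+ replicate 1, 2 lower without YFP+CD45+ replicate 2), and Pkm was at 1118 to 1420 CPM in YFP+CD45+ and 1407 to 1833 CPM in YFP+ (-0.38 ± 0.10, adjusted p = 0.0136). None of the 13 mitochondrially encoded genes was called at 2-fold, though their median was 0.69, and mt-Co1 was at 3141, 3204, 2931 and 3012 CPM in YFP+CD45+, against 1688, 1606, 1738, 1772 and 2587 CPM in YFP+ (0.74 ± 0.13, adjusted p = 0.00365). The part of the mitochondrial share in the other results was not tested.

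The largest increases after Ptprc, among named genes of at least 10 CPM in 1 group, were mostly of genes not known as blood cell genes. They were Csn2, Tmprss11d, Calb2, Astn1, Csn1s1, Cntnap4, Tph1, Fgd2 and Wipf3. Csn2 and Csn1s1 encode milk caseins of the mammary gland. Csn2 was at 12.9, 14.5, 62.4 and 49.5 CPM in YFP+CD45+, against 0.254, 0.158, 0, 0.0806 and 6.65 CPM in YFP+ (4.65 ± 1.08, adjusted p = 0.0113, 7.98 without YFP+ replicate 5), and Csn1s1 at 10.96, 11.7, 15.2 and 14.7 CPM in YFP+CD45+, against 0.254, 0.0790, 0, 0.323 and 4.83 CPM in YFP+ (3.61 ± 0.91, adjusted p = 0.0152, 6.23 without YFP+ replicate 5). Both were at or under 0.323 CPM in YFP+ replicates 1 to 4 and a few CPM in replicate 5. Astn1 (astrotactin 1) and Cntnap4 encode neuronal adhesion proteins, and Calb2 (calretinin) a calcium buffer of neurons. Cntnap4 was at 19.1, 16.1, 13.97 and 12.2 CPM in YFP+CD45+, against 0.508, 1.03, 0.409, 1.21 and 3.56 CPM in YFP+ (3.55 ± 0.49, adjusted p = 0.00157, 4.33 without YFP+ replicate 5), and Astn1 at 19.6, 17.4, 21.05 and 32.5 CPM in YFP+CD45+, against 0.699, 1.11, 0.328, 0.726 and 6.09 CPM in YFP+ (3.69 ± 0.67, adjusted p = 0.00451, 5.01 without YFP+ replicate 5). Calb2 was at 9.04, 7.57, 14.9 and 19.04 CPM in YFP+CD45+ and at most 3.88 CPM in YFP+ (3.81 ± 0.86, 6.04 without YFP+ replicate 5).

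Tph1, the tryptophan hydroxylase of mast and enterochromaffin cells, was at 36.3, 34.8, 7.97 and 9.98 CPM in YFP+CD45+, against 1.14, 0.869, 1.23, 1.29 and 5.38 CPM in YFP+ (3.51 ± 0.67, adjusted p = 0.00533, 4.32 without YFP+ replicate 5). Within the YFP+CD45+ gate Tph1 followed the Xist split, with replicates 1 and 2 over 3 times as high as replicates 3 and 4. Within the YFP+ gate it went the other way, since replicate 5, on the low side of Xist, was the highest. Tmprss11d, an airway serine protease, was at 39.9, 37.6, 56.3 and 65.4 CPM in YFP+CD45+, against 0.636, 0.0790, 0.246, 0.0806 and 13.2 CPM in YFP+ (4.16 ± 1.05, adjusted p = 0.0151, 7.46 without YFP+ replicate 5). Fgd2, an activator of the GTPase Cdc42 in antigen-presenting cells, was the haematopoietic member, at 15.8, 18.3, 16.6 and 14.5 CPM in YFP+CD45+, against 0.381, 0.711, 0.246, 0.645 and 5.38 CPM in YFP+ (3.50 ± 0.71, adjusted p = 0.00659, 5.06 without YFP+ replicate 5). Wipf3 (3.49 ± 1.03, 6.04 without YFP+ replicate 5) lost its call without any 1 of YFP+ replicates 1 to 4 or YFP+CD45+ replicates 3 and 4 (3.16 to 3.30, adjusted p = 0.0504 to 0.069), and Csn2, Csn1s1 and Tmprss11d did without the low-count filter (adjusted p = 0.0511 to 0.0677).

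The 10 largest decreases were Gdf10, Mmp3, S1pr3, Lum, Mmp13, Mgp, Tfpi2, Cc2d2a, Cdo1 and Crabp1, many of them secreted proteins of mesenchyme. Gdf10, a ligand of the transforming growth factor family, was at 2.01, 2.06, 0.688 and 0.917 CPM in YFP+CD45+, against 17.99, 17.8, 15.5, 23.1 and 2.77 CPM in YFP+ (-3.40 ± 0.61, adjusted p = 0.00398). Mmp3 (stromelysin 1) was at 11.6, 12.98, 4.13 and 4.68 CPM in YFP+CD45+, against 89.9, 69.2, 102.4, 81.7 and 6.96 CPM in YFP+ (-3.04 ± 0.71, adjusted p = 0.0114). YFP+ replicate 5 lay inside the double positive range for Mmp3, so the gates overlapped. Cdo1, the cysteine dioxygenase that starts cysteine breakdown, was at 4.02, 3.25, 4.33 and 3.77 CPM in YFP+CD45+, against 22.7, 24.8, 22.3, 22.7 and 17.96 CPM in YFP+ (-2.49 ± 0.13, adjusted p = 8.5e-06). Here YFP+ replicate 5 stayed close to the other YFP+ libraries, and the value moved little without it (-2.54). Crabp1, a retinoic acid binding protein, was at 37.1, 44.5, 21.2 and 22.1 CPM in YFP+CD45+, against 219.7, 192, 219, 193 and 60.1 CPM in YFP+ and 564 CPM in untransduced MEFs (-2.47 ± 0.40, adjusted p = 0.00311). Mgp (-2.63 ± 0.86) lost its call without any 1 of YFP+ replicates 1 to 4 or YFP+CD45+ replicates 3 and 4 (-2.26 to -2.62, adjusted p = 0.0666 to 0.0864), and Mmp13 (-2.41) and Tfpi2 (-2.39) without YFP+CD45+ replicate 4. In 1 fit over all hCD2 groups S1pr3 and Crabp1 missed the threshold.

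**Figure D4:**
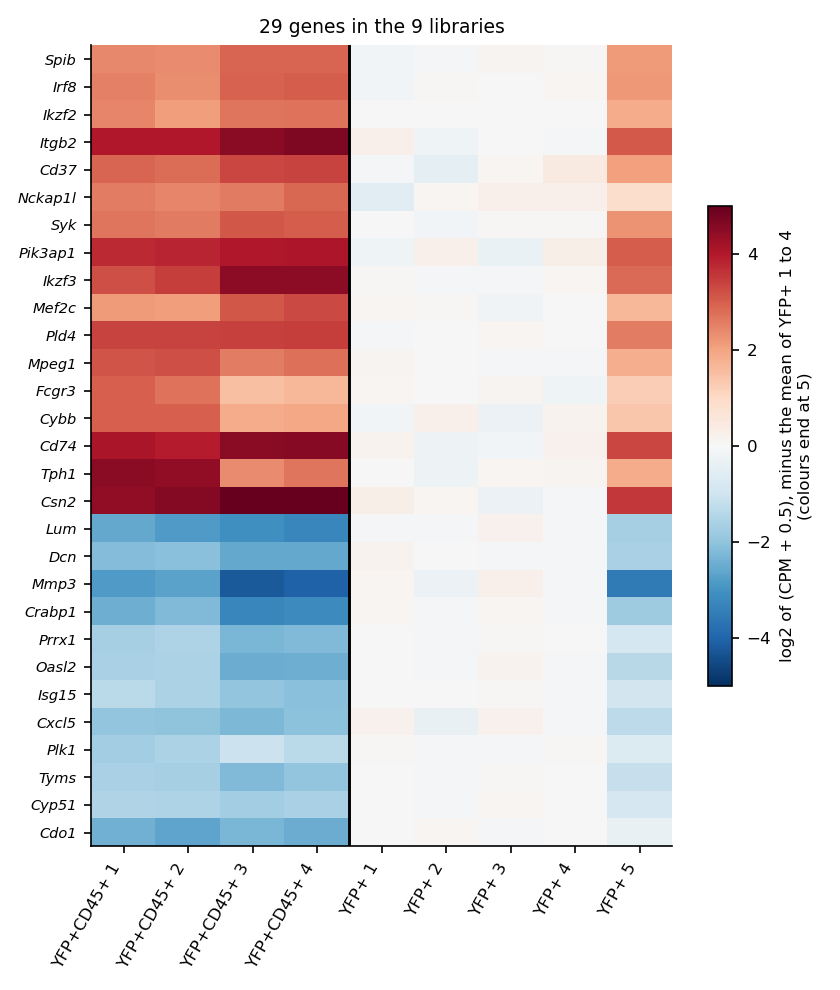
Levels of 29 genes in the 9 libraries as log2 of CPM plus 0.5, relative to the mean of YFP+ replicates 1 to 4, with YFP+CD45+ left of the black line and YFP+ right of it (red is higher, blue lower). YFP+ replicate 5 has the colours of the double positive libraries in paler shades, except for Mmp3, where it lies within their range, and for Cdo1 it stays close to the other YFP+ libraries; YFP+CD45+ replicates 3 and 4 differ from replicates 1 and 2 for genes such as Tph1, Mmp3 and Fcgr3.

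The gate difference was also set against that in the C9a line at day 3, with the difference of the 2 gate contrasts tested in 1 fit of 16 libraries. In the C9a line the factor levels of the gates overlapped. Spib was at 190.5, 76.1, 122.5 and 171 CPM in C9a.SII tdT+CD45+, against 138.3, 216 and 198 CPM in tdT+, and Ikzf2 at 1244, 457, 995 and 826 CPM in tdT+CD45+, against 957, 1114.5 and 991 CPM in tdT+. The gate contrast of hCD2.SII minus that of C9a.SII was 2.34 ± 0.66 for Spib (adjusted p = 0.0557), 2.36 ± 0.68 for Irf8 (adjusted p = 0.0581) and 2.11 ± 0.58 for Ikzf2 (adjusted p = 0.0514). These missed the threshold over all libraries and passed it without YFP+ replicate 5 (3.09, 3.14 and 2.72). The CD45 separation itself was less clean in the C9a libraries, since Ptprc was at 342, 1.41, 301 and 105.3 CPM in tdT+CD45+, against 15.9, 134.1 and 147.4 CPM in tdT+, so that the library labelled tdT+CD45+ replicate 2 went against its label.

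Over 17330 genes the hCD2.SII gate contrast exceeded that of C9a.SII for 175 genes (1.01%) and lay below it for 388 (2.24%). The largest of at least 10 CPM were Selenbp1 (3.79 ± 0.90, adjusted p = 0.0346) and Fgd2 (3.35 ± 0.83, adjusted p = 0.0381) above, and Cc2d2a (-3.44 ± 0.73, adjusted p = 0.0240), Mmp3 (-3.41 ± 0.93, adjusted p = 0.0498) and Myc (-3.21 ± 0.73, adjusted p = 0.0305) below. Selenbp1, a selenium-binding methanethiol oxidase, was at 42.3, 37.4, 45.4 and 44.8 CPM in hCD2.SII YFP+CD45+, against 2.35, 2.05, 2.46, 2.82 and 16.6 CPM in YFP+. In the C9a line Selenbp1 was at 26.8, 5.12, 29.2 and 26.4 CPM in tdT+CD45+, against 18.4, 49.3 and 47.1 CPM in tdT+, so the gates overlapped there. Without hCD2.SII YFP+ replicate 5 the difference was 4.91 for Selenbp1 and 4.90 for Fgd2. Each of the 5 lost its call when C9a.SII tdT+ replicate 2 or 3, or 1 of several hCD2.SII libraries, was left out. The counts rested on single libraries, given here as a percent of the counts over all libraries. For genes above and below they were 2.29% and 2.84% without C9a.SII tdT+ replicate 2, 1.14% and 1.80% without tdT+ replicate 3, and 62.9% and 56.2% without tdT+CD45+ replicate 2. Without hCD2.SII YFP+ replicate 5 they were 506% and 259%. They were 18.3 to 22.3% and 25. to 27.3% without any other YFP+ library or YFP+CD45+ replicate 3 or 4, and 66.3% and 83.2% without YFP+CD45+ replicate 1.

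**Figure D5:**
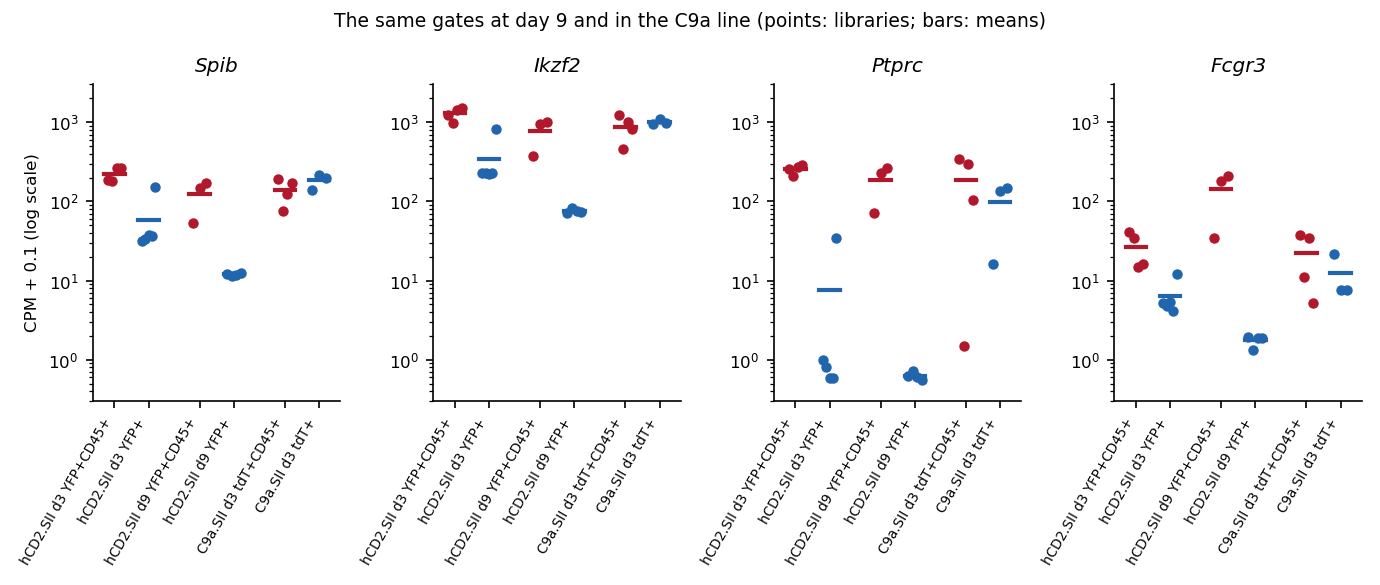
Levels of Spib, Ikzf2, Ptprc and Fcgr3 in CPM plus 0.1 (log axis) in hCD2.SII cells at day 3 and day 9 and in C9a.SII cells at day 3, with the CD45+ reporter gate (red) left of the reporter gate (blue) in each pair; points are libraries and bars are means. Spib and Ikzf2 are higher in the double positive gate in the hCD2 line on both days, and overlap between the gates in the C9a line.

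At day 9 the same line showed the same direction for the factors. Spib was at 53.6, 145.9 and 169.8 CPM in hCD2.SII d9 YFP+CD45+, against 11.9, 11.5, 11.6 and 12.4 CPM in d9 YFP+, and Ikzf2 at 377, 947 and 1013 CPM in d9 YFP+CD45+, against 71.4, 83.1, 76.2 and 72.9 CPM in d9 YFP+. The gate contrast of day 3 minus that of day 9 was -1.37 ± 0.72 for Spib (adjusted p = 0.331), -1.16 ± 0.71 for Irf8 (adjusted p = 0.408) and -1.40 ± 0.62 for Ikzf2 (adjusted p = 0.234). None passed the threshold, with or without YFP+ replicate 5 (-0.60, -0.37 and -0.78). Of 17465 genes, 0.595% had a gate contrast called higher at day 3 than at day 9 and 186 (1.06%) one called lower, 1.66% in all.

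Genes that separated the gates at day 9 more than at day 3 included Fabp7, a fatty acid binding protein, and Csf2rb2, the mouse receptor chain specific to interleukin 3. Fabp7 was at 2.10, 2.60, 1.08 and 0.611 CPM in day 3 YFP+CD45+, against 1.72, 1.74, 0.982, 1.29 and 1.90 CPM in day 3 YFP+. At day 9 Fabp7 was at 10.8, 46.7 and 36.8 CPM in YFP+CD45+, against 0.664, 1.23, 0.595 and 0.901 CPM in YFP+ (difference -5.08 ± 0.68, adjusted p = 0.00351). The gates overlapped for Fabp7 at day 3 and did not at day 9. Csf2rb2 was at 0.590 to 2.10 CPM in day 3 YFP+CD45+ and 0.982 to 1.94 CPM in day 3 YFP+, and at day 9 at 11.99, 56.6 and 83.9 CPM in YFP+CD45+, against 1.58 to 4.12 CPM in YFP+ (-4.19 ± 0.77, adjusted p = 0.0146). Both kept their calls without any 1 library. Fcgr3 followed (-4.24 ± 0.82, adjusted p = 0.0195), at 34.5, 179 and 211 CPM in day 9 YFP+CD45+, against 1.23 to 1.84 CPM in day 9 YFP+, and lost its call without d9 YFP+CD45+ replicate 2. Clec5a (-5.69 ± 1.43, adjusted p = 0.0450) and Olfr592 (-4.04 ± 0.90, adjusted p = 0.0251) lost theirs without most single libraries, and Clec5a was -5.04 without YFP+ replicate 5 of day 3 (adjusted p = 0.123). The Xist split ran through day 9 too. Xist was at 0.889 and 3.30 CPM in d9 YFP+CD45+ replicates 2 and 3. It was over 20 CPM in replicate 1 of that gate and in every d9 YFP+ library. Fabp7, Csf2rb2 and Fcgr3 were lower in d9 YFP+CD45+ replicate 1 than in replicates 2 and 3, though above every d9 YFP+ library. The part of the Xist split in the differences between the days was not tested. Replicate 1 also had the lowest Spib and Ikzf2 levels of d9 YFP+CD45+. Without d9 YFP+CD45+ replicate 1, 1166 genes had a contrast called higher at day 3 and 688 one called lower. Without d9 YFP+CD45+ replicate 2 these counts were 30 and 50, without replicate 3 of that gate 25 and 77, and without YFP+ replicate 5 of day 3 310.0 and 282. Without any other YFP+ library of either day or YFP+CD45+ replicate 3 or 4 of day 3 they were 34.6 to 74.% and 39.2 to 65.6% of the counts over all libraries.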

How the data were processed

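Total RNA from sorted cells was sequenced, and the authors deposited a table of raw counts per gene identifier. Per the submitters' processing notes, STAR 2.7.9a and Salmon 1.10.1 were used with mm10; their roles, the annotation and the strand setting are not given in the sources used here, so reads of overlapping antisense genes may not be separated. Of 57010 identifiers, 52029 were named from GENCODE M21. The 9 libraries were fitted with edgeR 4.0.16 (R 4.3.3) by its quasi-likelihood test, after filterByExpr and TMM scaling, with no covariate. A gene was called at a Benjamini-Hochberg adjusted p under 0.05 and at least a 2-fold difference. Values after ± are SE unless stated. Levels are TMM-scaled CPM on 1 scale over 32 libraries. Named genes were the factors and sort markers; from each list up to 4 called members with the largest change and no overlap, the called member that moved furthest the opposite way and the uncalled member of highest level; the 10 highest and 10 lowest called named genes at 10 CPM or more; and the 5 largest of each difference of contrasts. Lack of overlap was a condition for those up to 4 members of a list, and so is no result for them. Tlr9 and Ncf1 were named after their values were seen. The members and lists were chosen with earlier results of these data known. The step was tested on simulated data that held no outlying library and no Xist split. In the main comparison it called 38.5% of the genes made to differ 2-fold and 99% of those made to differ 4-fold. For the difference from C9a.SII these were 17% and 78.4%, and for that from day 9 26% and 82.3%. Contrasts that were not called can therefore hide 2-fold changes. Alternatives were DESeq2 1.42.0, its size factors, no low-count filter, 1 fit over all hCD2 groups, a replicate block and leaving out each library; the Xist split was added after seeing the data. Same-numbered libraries correlated at 0.113, 0.122, -0.173 and -0.179 (deviations from the group mean), so numbers were not taken as pairs. The libraries were still not without structure across the gates. YFP+CD45+ replicates 3 and 4 correlated with YFP+ replicate 5 at 0.396 and 0.371, and replicates 1 and 2 with it at -0.395 and -0.355. This follows the Xist split, which the main fit did not hold as a term. Some results are not reported here.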

Additional observations from a re-analysis of the deposited data

Results flagged for a closer look

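In a group of 4 or 5 libraries, a library was singled out when its gap to the nearest other, divided by the range of the group, passed Dixon's 95% critical value. Chance does so in about 1 in 20 groups. Among genes of the text at 1 CPM or more, 69 (66.3%) had such a library in the YFP+ gate, each time YFP+ replicate 5, and 5 (4.72%) had one in the YFP+CD45+ gate, a share no larger than chance gives. The ratio of YFP+ replicate 5 was 0.99 for Ikzf2 and Ptprc, 0.98 for Ikzf3 and Pld4, 0.97 for Cd74, 0.96 for Itgb2, Syk, Csn2 and Tmprss11d, 0.95 for Spib, Irf8, Cd86 and Unc93b1. It was 0.94 for Pik3ap1 and Calb2, 0.93 for Prdm1, Itgam, Naaa, Mpeg1 and Csn1s1, 0.92 for Mef2c, Fli1, Tapbp, Ctsh and Clec12a, 0.91 for Lyn, Il10ra, Cyba, Tph1, Fgd2 and Wipf3, 0.90 for Ctss. It was 0.89 for Zeb2, Cd24a, H2-Q4 and Egr1, 0.88 for Tyms, 0.87 for Astn1, 0.86 for Timp3, Fn1 and Cc2d2a, 0.85 for Plek, Tcf4 and Tlr1. It was 0.84 for Fcgr3, Cd40, Idi1 and S1pr3, 0.83 for Lyl1, Cd80, Plk1, mt-Co1 and Crabp1, 0.81 for Cd37 and Isg15, 0.80 for Cybb, Prrx1 and Bub1, 0.79 for Dcn and Rrm2. It was 0.75 for Oasl2 and Cntnap4, 0.74 for Btk, Lum, Tagln, Ttk, Aurka and Mgp, 0.73 for Cyp51. In the YFP+CD45+ gate the ratio was 0.88 for Irf4 in replicate 1, 0.90 for Itgam in replicate 3, 0.83 for Lyl1 in replicate 1, 0.85 for Tlr1 in replicate 4 and 0.85 for Bub1 in replicate 2. For library properties it was 0.75 for the total count of YFP+ replicate 1, 0.78 for the mitochondrial share of YFP+ replicate 5 and 0.86 for the share of the top identifier in YFP+CD45+ replicate 1.

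Some gate contrasts differed by the test of the difference itself. The hCD2.SII day 3 contrast minus that of C9a.SII was 3.79 for Selenbp1, 3.35 for Fgd2, -3.44 for Cc2d2a, -3.41 for Mmp3 and -3.21 for Myc. The hCD2.SII day 3 contrast minus that of day 9 was -5.69 for Clec5a, -5.08 for Fabp7, -4.24 for Fcgr3, -4.19 for Csf2rb2 and -4.04 for Olfr592.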

How the results depend on the processing

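Between YFP+CD45+ and YFP+, 789 genes were called higher and 898 lower. At adjusted p alone the counts were 2788 and 3204, and at 10 CPM or more 384 and 545. Leaving out 1 library gave 548 to 1255 higher and 683 to 1184 lower. With a replicate block, 1236 were higher and 1249 lower, and the factors were 2.71 for Spib, 2.75 for Irf8 and 2.52 for Ikzf2. Only YFP+ of day 3 has a replicate 5, so in each block fit that library had its own term and did not enter the contrast. The block fits are therefore close to leaving out YFP+ replicate 5. Without the low-count filter Spib was 1.92 and Irf8 1.93, under the threshold; the cause was not tested. Over all gene lists 60 member calls were higher and 91 lower (44 to 76 higher without 1 library), and 51 were lower in 1 fit over all hCD2 groups. Against C9a.SII, 175 differences were positive and 388 negative, with 437 and 824 by DESeq2, 867 and 929 with a replicate block, and 2 to 886 and 7 to 1003 without 1 library. Against day 9, 0.595% of genes were positive and 186 genes negative, with 187 and 392 by DESeq2, 226 positive with a replicate block, and 25 to 1166 and 50 to 688 without 1 library. No called value changed sign under these alternatives. The 9 libraries and the spread of YFP+ replicate 5 limit the precision of small changes.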
